A study of Mus musculus with 18 samples.

Results

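*Lpl*, *Camk2b*, *Chga*, *Sva*, *Il1r2*, *Ryr2* and *Acoxl* are 7 of the 19919 genes listed in the expression tables of dendritic cell (DC) progenitors. They were chosen by their FPKM (a read count corrected for transcript length and library depth), which was higher in the libraries labelled KO from near absence or from a low level in WT. The difference between genotypes therefore chose them and is described here without a test. Mean FPKM was higher in KO-labelled than in WT libraries for 7 of 7 genes in each of the 3 populations. All 3 KO-labelled libraries lay above all 3 WT libraries for 5 genes of MPPs, 5 of the CD115- CDPs and 7 of the CLPs. Among all genes above 0 in any library of the population, the same held for 5.81%, 5.76% and 11.8%. WT means of *Lpl*, *Sva*, *Ryr2* and *Acoxl* were below 1 FPKM in every population, the limit for near absence used below. The name "ectopic" is kept to these genes by that limit on the WT mean alone. *Lpl* and *Acoxl* were detected in every WT library, at 0.29 to 1.07 FPKM and 0.04 to 0.22 FPKM. KO-labelled means of *Ryr2* were below 1 FPKM as well in every population, at 0.853 FPKM or less. Those of *Acoxl* were below it in MPPs and CLPs, at 0.150 and 0.550 FPKM. *Camk2b* averaged 1.31 FPKM in WT CLPs (1.02 to 1.48 FPKM) and *Chga* 1.99 FPKM in WT MPPs (1.56 to 2.33 FPKM). Both were thus low but detected in every WT library of those populations. *Il1r2* averaged 26.6 FPKM in WT CD115- CDPs. By the same limit the name is too strong for *Camk2b*, *Chga* and *Il1r2*.

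The cells were sorted from the bone marrow of C57BL/6 mice aged 6 to 8 weeks, where *Trim33* fl/fl mice served as WT and *Trim33* fl/fl Cre-ERT2 mice as KO. Mice of both genotypes carried the floxed alleles and were given tamoxifen, 2 mg daily for 5 days, and cells were taken after 7 more days. Cre-ERT2 is a recombinase that tamoxifen activates, here in the whole body rather than in a single lineage, and it removes exons 2 to 4 of *Trim33*. The 18 libraries comprised 3 WT and 3 KO libraries each of multipotent progenitors (MPPs, Lin- Sca-1+ CD117+ CD34+ FLT3+), of common DC progenitors without CD115 or CD127 (CD115- CDPs, with intermediate CD117, FLT3+ and negative for lineage markers and CD11c) and of common lymphoid progenitors (CLPs, positive for CD127, FLT3, CD117 and Sca-1, and Lin- CD11c-). WT mice carried no Cre, so that any effect of active Cre itself cannot be told apart from that of the deletion.

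TRIM33 (TIF1-gamma) is a nuclear protein of the tripartite motif family that reads histone marks and takes part in both the silencing and the activation of genes, including targets of SMAD and PU.1. Genes of mature neurons, muscle or glands are normally kept silent in blood progenitors, although single members of such programmes are known to be used by some blood cells. The 7 genes come from different programmes. LPL is the extracellular lipase that releases fatty acids from circulating lipoproteins, and ACOXL is a relative of the peroxisomal acyl-CoA oxidases. CAMK2B is the beta chain of calcium/calmodulin-dependent kinase II, best known from neurons, and RYR2 is the calcium release channel of the sarcoplasmic reticulum in heart muscle. Chromogranin A, encoded by *Chga*, is a core protein of the secretory granules of neuroendocrine cells. *Sva* encodes seminal vesicle autoantigen, a secreted protein of the prolactin-inducible protein family, and *Il1r2* encodes the decoy receptor that binds interleukin-1 without signaling.

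*Trim33*, the targeted gene, was 10.42, 10.12 and 8.78 FPKM in the WT MPP libraries 1, 2 and 3 and 9.71, 11.66 and 4.80 FPKM in those labelled KO 1, 2 and 3, which overlap (limma adjusted p = 0.630). The genotypes overlapped in CD115- CDPs (8.27 to 15.23 FPKM in WT, 4.03 to 9.64 FPKM in KO) and in CLPs (7.01 to 12.36 and 5.6 to 7.66 FPKM) as well, with limma adjusted p = 0.528 and 0.255, or 0.0258 and 0.0727 with the replicate number as a block. A gene-level value also counts reads from the exons that are kept, so that it does not check the deletion, and the libraries are named below by their label. Transcripts of the sorting markers were present: *Flt3* was at 146.8 FPKM or more in every library, and *Il7r*, which encodes CD127, reached 32.56 to 63.03 FPKM in the 6 CLP libraries. Of 7 sorting markers tested, *Csf1r*, which encodes CD115, was called lower in KO-labelled MPPs and CLPs (log2 fold changes -1.59 and -1.65, limma adjusted p = 0.00253 and 0.00179). *Itgax*, which encodes CD11c, was called lower in CD115- CDPs and CLPs (-1.85 and -3.12, limma adjusted p = 0.0499 and 5.12e-06). With the replicate number as a block *Csf1r* was also called lower in CD115- CDPs (-2.01, limma adjusted p = 0.000823, and 0.397 without it), where its WT mean was 77.6 FPKM although the cells were sorted as negative for CD115. Their part in the results was not tested. Each library was estimated to hold 19.4 to 21.4 M mapped reads. Deviations from the group mean were shared by libraries with the same replicate number in CD115- CDPs (correlations of 0.437 to 0.790) and CLPs (0.131 to 0.400), but not for every number in MPPs (0.0382 to 0.482). Mean correlations were 0.632, 0.287 and 0.331 for the same number in CD115- CDPs, CLPs and MPPs, against -0.261, -0.139 and -0.155 for different numbers. Single pairs of different numbers reached 0.663, 0.234 and 0.262, so that the ranges overlapped. Calls below come from fits that leave the numbers out, and the fit with the number as a block is an alternative. In bulk samples, a rise in the share of cells that express a gene and a rise in the RNA per cell cannot be told apart.

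The 7 genes lie on 7 chromosomes. In GRCm38, the build of mm10, *Lpl* (Entrez 16956) occupies chr8:68880555-68906932 on the plus strand, *Camk2b* (12323) chr11:5969629-6066357 on the minus strand and *Chga* (12652) chr12:102554941-102565027 on the plus strand. *Sva* (20939) is at chr6:42038394-42042851 and *Il1r2* (16178) at chr1:40084692-40125230, both on the plus strand. *Ryr2* (20191) spans chr13:11553099-12106945 on the minus strand, and *Acoxl* (74121) chr2:127838797-128126252 on the plus strand. Their transcripts ranged from 651 bases in 4 exons (*Sva*) to 16814 bases in 105 exons (*Ryr2*), so that the same FPKM stands for very different numbers of reads. At the estimated depth, 1 read was worth 0.0777 to 0.0855 FPKM for *Sva* but 0.00279 to 0.00307 FPKM for *Ryr2*.

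Promoter sequence from RefSeq (GRCm38.p6) was found for 6 of the 7 genes, all but *Lpl*. The 3 below are shown because they cover the range of base composition among genes that were higher in the same libraries. Each is the 250 bases before the annotated start, read 5′ to 3′ on the strand of the gene. The starts are those of the RefSeq promoter table, which for *Camk2b*, *Il1r2* and *Acoxl* lie 0.609, 1.4 and 15.8 kb inside the gene spans given above. Capitals mark GGGCGG (the GC box) and CCAAT (here on the opposite strand, as ATTGG).
Camk2b, chr11:6065749-6065998, minus strand: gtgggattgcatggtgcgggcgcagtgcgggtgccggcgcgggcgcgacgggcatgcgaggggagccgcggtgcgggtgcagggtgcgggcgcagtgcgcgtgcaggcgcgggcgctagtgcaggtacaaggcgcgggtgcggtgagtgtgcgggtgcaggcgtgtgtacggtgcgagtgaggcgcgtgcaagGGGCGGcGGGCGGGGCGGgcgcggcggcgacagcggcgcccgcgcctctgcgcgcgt
Chga, chr12:102554691-102554940, plus strand: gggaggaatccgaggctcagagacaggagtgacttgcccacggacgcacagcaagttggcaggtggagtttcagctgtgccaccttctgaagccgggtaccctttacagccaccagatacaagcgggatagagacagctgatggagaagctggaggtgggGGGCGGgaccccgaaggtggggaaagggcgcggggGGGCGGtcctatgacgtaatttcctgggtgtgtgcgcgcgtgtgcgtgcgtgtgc
Sva, chr6:42038144-42038393, plus strand: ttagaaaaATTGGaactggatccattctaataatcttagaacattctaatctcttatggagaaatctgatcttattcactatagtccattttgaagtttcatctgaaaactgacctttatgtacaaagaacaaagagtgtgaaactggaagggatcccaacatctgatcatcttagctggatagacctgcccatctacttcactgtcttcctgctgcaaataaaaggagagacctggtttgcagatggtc
The *Camk2b* sequence holds 44 CpG dinucleotides, that of *Chga* 16 and that of *Sva* 0. Over 300 bases, 250 before and 50 after the start, the GC content was 77.3% for *Camk2b*, 65.3% for *Ryr2*, 62.0% for *Chga*, 53.0% for *Acoxl*, 51.3% for *Il1r2* and 38.7% for *Sva*, against a median of 52.7% over all 32851 promoters in the table. The ratio of observed to expected CpG ran from 0 for *Sva* to 1.28 for *Camk2b*, with a median of 0.384 over all promoters. The 6 genes thus shared no common promoter composition.

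Motifs were searched on both strands of the 300 bases. GGGCGG, which 35.7% of all promoters hold, was found in *Camk2b* (3 times, starting 57, 50 and 45 bases before the start), *Chga* and *Ryr2*. CCAAT, held by 37.4%, was found in *Acoxl* and *Sva*, and TATAAA, held by 13.6%, in *Chga* alone. In *Chga* it begins 5 bases after the RefSeq start and 23 bases before the start given by GENCODE vM21, within the 20 bases chr12:102554941-102554960 (TATAAA in capitals).
Chga, RefSeq start: gtgtaTATAAAagccggcat
None of the 6 promoters held GAGGAAGT (a PU.1 site, in 3.20% of all promoters), CAGACA (a SMAD element, 21.0%) or TTCAGCACC (part of the site of REST, the repressor of neuronal genes, 0.371%).

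*Lpl* was low in every WT library and highest by far in KO-labelled CLPs. In CLPs it was 0.53, 0.51 and 0.34 FPKM in WT 1, 2 and 3 and 16.02, 17.76 and 12.50 FPKM in KO 1, 2 and 3. The groups did not overlap, and the KO-labelled mean of 15.4 ± 2.68 FPKM (SD, n = 3) was 33.5 times the WT mean of 0.460 ± 0.104 FPKM (SD, n = 3). The difference of mean log2(FPKM + 1), the scale used for all log2 differences below, was 3.48 (standard error 0.150), rank 1 among the 12339 genes fitted in CLPs. In CD115- CDPs the values were 0.31, 0.29 and 1.07 FPKM in WT against 4.24, 3.89 and 0.97 FPKM in KO. Here WT 3 was higher than KO 3, so that the difference held for replicate numbers 1 and 2 only, at 13.7 and 13.4 times, against 0.907 times for number 3. In MPPs *Lpl* was 0.74, 0.38 and 0.49 FPKM in WT against 1.04, 1.28 and 2.51 FPKM in KO, a ratio of means of 3.0.

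*Camk2b* followed the same order of populations. It was 1.48, 1.42 and 1.02 FPKM in WT against 19.43, 19.61 and 25.92 FPKM in KO CLPs, without overlap, a ratio of means of 16.6 and a log2 difference of 3.29 (standard error 0.151), rank 2 among the genes fitted. In CD115- CDPs it was 0.54, 0.71 and 0.45 FPKM in WT against 10.88, 6.32 and 3.84 FPKM in KO, and in MPPs 0.74, 0.89 and 0.83 FPKM in WT against 7.03, 4.53 and 6.44 FPKM in KO. In all 3 populations the lowest KO-labelled library was at least 5.09 times the highest WT library. Across groups the KO-labelled CLPs stood above the other 5 groups, whereas KO-labelled CD115- CDPs and MPPs overlapped (7.01 ± 3.57 and 6.00 ± 1.31 FPKM; SD, n = 3 each). In 9 KO-labelled libraries the log2 values of *Lpl* and *Camk2b* correlated at 0.93; libraries of a population share that population, and both genes peaked in CLPs.

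**Figure D1:**
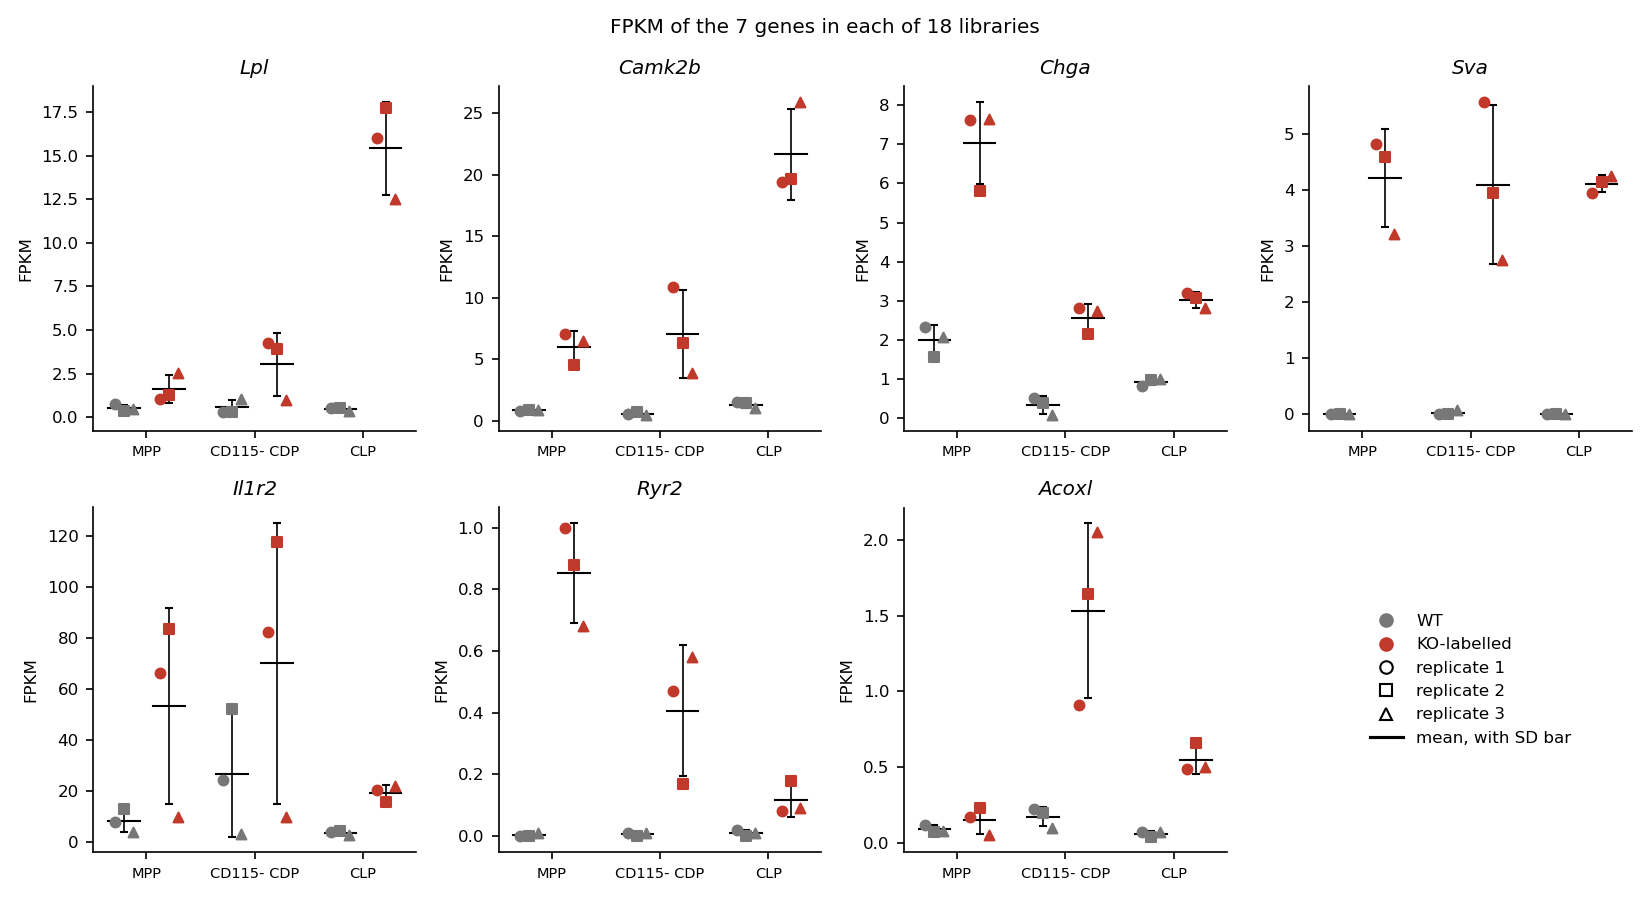
FPKM (linear axis, one scale per gene) of the 7 genes in WT (gray) and KO-labelled (red) libraries of MPPs, CD115- CDPs and CLPs; marker shapes give the replicate number, horizontal lines the mean and bars the SD over 3 libraries. *Lpl* and *Camk2b* peak in KO-labelled CLPs, *Chga* and *Ryr2* in KO-labelled MPPs and *Acoxl* in KO-labelled CD115- CDPs, while *Sva* reaches about the same level in all 3.

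*Chga* was highest in MPPs in both genotypes. There it was 2.33, 1.56 and 2.08 FPKM in WT against 7.63, 5.81 and 7.65 FPKM in KO, without overlap and at 3.53 times the WT mean. Its CLP values were 0.83, 0.98 and 1.0 FPKM in WT against 3.21, 3.08 and 2.81 FPKM in KO, a ratio of 3.24 with little spread among libraries. In CD115- CDPs it was 0.53, 0.38 and 0.08 FPKM in WT, the last being about 3 reads, and 2.82, 2.15 and 2.73 FPKM in KO. The ratio of means was 7.78 there, over a lower WT level, while the log2 difference of 1.43 (standard error 0.197) was like that of 1.43 in MPPs (standard error 0.164). WT MPPs lay above WT CLPs, and WT CLPs above WT CD115- CDPs, with no overlap between these groups, whereas KO-labelled CLPs and CD115- CDPs overlapped.

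*Ryr2* was nearly absent from WT libraries, at 0, 0 and 0.01 FPKM in MPPs, 0.01, 0 and 0.01 FPKM in CD115- CDPs and 0.02, 0 and 0.01 FPKM in CLPs. A value of 0.01 FPKM corresponds to about 3.44 reads over its long transcript. The KO-labelled libraries had 1.0, 0.88 and 0.68 FPKM in MPPs, where the lowest corresponds to about 235 reads, 0.47, 0.17 and 0.58 FPKM in CD115- CDPs and 0.08, 0.18 and 0.09 FPKM in CLPs. No library overlapped between the genotypes in any population, and among KO-labelled groups MPPs stood above CD115- CDPs, which overlapped with CLPs only between their lowest and highest libraries. No fold change is given, because the WT libraries are at 0 or near the rounding of the tables. This order runs against that of *Lpl*: over the 9 KO-labelled libraries the log2 values of *Ryr2* correlated at -0.88 with *Lpl* and at 0.77 with *Chga*. Libraries of a population share that population, so that these correlations only describe the order of the populations.

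*Sva* was absent from nearly all WT libraries and present in every KO-labelled one. It was listed at 0 FPKM in 8 of 9 WT libraries and at 0.08 FPKM, about 1 read, in the CD115- CDP library WT 3. The KO-labelled libraries had 4.83, 4.60 and 3.21 FPKM in MPPs, 5.58, 3.95 and 2.76 FPKM in CD115- CDPs and 3.95, 4.14 and 4.26 FPKM in CLPs. With a short transcript these values rest on only about 34.8 to 68.8 reads per library. The KO-labelled means of 4.21 ± 0.876, 4.10 ± 1.42 and 4.12 ± 0.156 FPKM (SD, n = 3 each) overlapped among the 3 populations. No other of the 7 genes reached such similar levels in the 3 KO-labelled groups. The other members of its family on the list, *Pip* and *Sval1* to *Sval3*, have no row in the tables and were not analysed here.

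*Acoxl* was highest in KO-labelled CD115- CDPs. It was 0.22, 0.20 and 0.10 FPKM in WT against 0.91, 1.64 and 2.05 FPKM in KO CD115- CDPs, a ratio of means of 8.85. In CLPs it was 0.07, 0.04 and 0.07 FPKM in WT against 0.49, 0.66 and 0.50 FPKM in KO, also without overlap and at a ratio of 9.17 over a lower WT level. Its MPP values were 0.12, 0.07 and 0.08 FPKM in WT against 0.17, 0.23 and 0.05 FPKM in KO; the genotypes overlapped, and the library labelled KO 3, at about 2.9 reads, was the lowest of the 6. Over the 9 KO-labelled libraries *Acoxl* correlated at -0.82 with *Chga*, which was lowest in the population where *Acoxl* was highest. Here too libraries of a population share that population.

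*Il1r2* was the only gene of the 7 with a substantial WT level, and its values followed the replicate number. In MPPs it was 7.87, 12.77 and 3.87 FPKM in WT 1, 2 and 3 and 66.22, 83.79 and 9.92 FPKM in KO 1, 2 and 3. In CD115- CDPs it was 24.43, 52.34 and 3.15 FPKM in WT against 82.49, 117.97 and 9.83 FPKM in KO. In both populations libraries numbered 3 were the lowest of their group and those numbered 2 the highest, so that the genotypes overlapped, yet the KO-labelled library exceeded the WT library of the same number in each case. The ratios were 8.41, 6.56 and 2.56 in MPPs and 3.38, 2.25 and 3.12 in CD115- CDPs. The standard error of the log2 difference of 1.42 in CD115- CDPs was accordingly 1.21, or 0.130 with the replicate number as a block. In CLPs *Il1r2* was 3.76, 4.06 and 2.78 FPKM in WT against 20.18, 15.76 and 21.93 FPKM in KO, without overlap and with no library that stood apart.

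**Figure D2:**
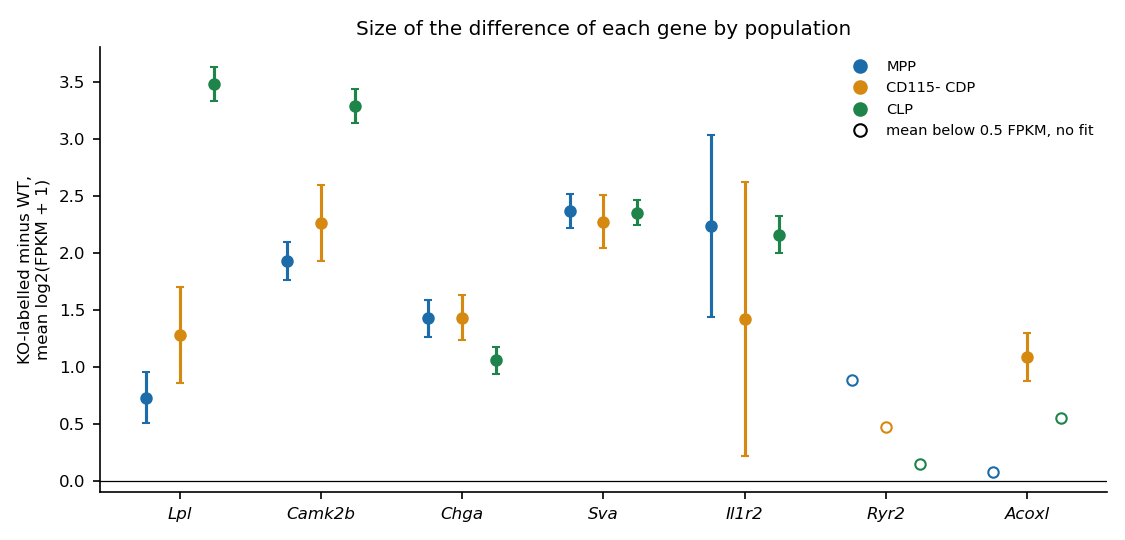
Difference of mean log2(FPKM + 1), KO-labelled minus WT, for each gene in MPPs (blue), CD115- CDPs (orange) and CLPs (green); filled points carry the standard error of the fit over 3 against 3 libraries, and open points are genes below a mean of 0.5 FPKM, which were not fitted. *Lpl* runs from 0.73 in MPPs to 3.48 in CLPs, *Sva* stays between 2.28 and 2.37, and *Il1r2* has the longest bars in MPPs and CD115- CDPs.

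Leaving out the libraries labelled KO 3 raised the number of genes without overlap from 5 to 7 in MPPs and from 5 to 7 in CD115- CDPs, because those libraries were lowest for *Il1r2* in both populations, for *Acoxl* in MPPs and for *Lpl* in CD115- CDPs. In CLPs 7 of 7 stood above the WT range whichever library was left out. Ranked by the size of the log2 difference, the 5 genes fitted in MPPs held ranks 9 (*Sva*), 10 (*Il1r2*), 14 (*Camk2b*), 31 (*Chga*) and 264 (*Lpl*) of 12372, and the 6 fitted in CD115- CDPs ranks 11 to 53 of 12229. This follows from how they were picked and is given only to show their size. A WT mean of at most 1 FPKM with a KO-labelled mean of at least 1 FPKM and at least 4 times as high was met by 58 of 19710 listed genes for MPPs, 37 of 19710 for CD115- CDPs and 36 of 18378 for CLPs. The genes described here made up 2 (*Camk2b* and *Sva*), 5 (*Lpl*, *Camk2b*, *Chga*, *Sva* and *Acoxl*) and 2 (*Lpl* and *Sva*) of them. The reverse change, from at least 1 FPKM in WT to at most 1 FPKM and a fall of at least 4 times, was met by 75, 119 and 150 genes. Just inside the limit was *Camk2b* in MPPs, with a WT mean of 0.820 FPKM, and just outside it *Camk2b* in CLPs, with a WT mean of 1.31 FPKM.

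For each gene the other genes with the most similar profile were identified by the Pearson correlation of log2(FPKM + 1) over the 18 libraries, among 12972 candidates. The values share libraries and genotype, and are a description. *Fcgr2b*, which encodes the inhibitory Fc gamma receptor IIB, was nearest to both *Sva* (r = 0.957) and *Camk2b* (r = 0.902). Its means were 12.3, 19.8 and 21.5 FPKM in WT MPPs, CD115- CDPs and CLPs and 120.7, 128.2 and 163.8 FPKM in the KO-labelled groups. The nearest profile to *Lpl* was that of *Sfmbt2* (r = 0.948), a Polycomb-related gene, at 0.660 FPKM in WT against 4.08 FPKM in KO-labelled CLPs. *Chga* was nearest to *Laptm4b* (r = 0.970), a lysosomal membrane protein gene whose means were 18.6 FPKM in WT against 34.3 FPKM in KO-labelled MPPs. *Ryr2* was nearest to *Gm5416* (r = 0.941) and *Cyp2a5* (r = 0.934), both listed at 0 in the WT means of MPPs and CD115- CDPs, and *Acoxl* to *Hebp2* (r = 0.954). *Il1r2* was nearest to *Fam84b* (r = 0.957) and *Spred1* (r = 0.948), an inhibitor of RAS signaling.

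The genomic neighborhood was examined next, in flanking genes that were not used to pick the 7 genes. The 3 nearest listed genes on each side gave 42 genes, of which limma tested 29, 28 and 30 in MPPs, CD115- CDPs and CLPs, on log2(FPKM + 1). A gene was called where its p, adjusted by Benjamini-Hochberg over all genes tested in the population, was 0.05 or less and its log2 fold change was 1 or more in either direction. In CLPs 1 neighbor was called higher and 1 lower, where 0.673% and 2.84% of all tested genes were called. There 12 of 30 had an unadjusted p of at most 0.05, 9 of them higher and 3 lower. In MPPs 0 were called in either direction by limma, against 0.162% called higher and 1.32% called lower among all tested genes, and 10 of 29 had an unadjusted p of at most 0.05. In CD115- CDPs 0 were called as well, against 0.0409% higher and 0.0654% lower, and 1 of 28 had an unadjusted p of at most 0.05. Counts at an unadjusted p, here and below, have no share of all tested genes beside them and are a description. Fitting the replicate number as a block gave the same counts of neighbors in each population (9, 10 and 13 at an unadjusted p of at most 0.05), while the shares of all tested genes called higher and lower were 0.202% and 1.32% in MPPs, 0.376% and 1.46% in CD115- CDPs and 0.746% and 3.11% in CLPs. The median log2 difference of the neighbors was -0.07, -0.02 and 0.01 in MPPs, CD115- CDPs and CLPs, and that of all tested genes -0.11, -0.07 and 0.01.

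The neighbor called higher, *Slc18a1*, encodes a vesicular monoamine transporter of neuroendocrine cells and lies 130.8 kb beyond *Lpl*, at chr8:69037708-69089238. In CLPs it was 3.01, 3.29 and 2.10 FPKM in WT against 7.59, 7.76 and 6.94 FPKM in KO, without overlap (log2 fold change 1.16, standard error 0.147, limma adjusted p = 0.00131). The neighbor called lower, *Lzts1*, a leucine zipper gene 225.7 kb from *Lpl* on the same side, was 1.87, 2.21 and 2.09 FPKM in WT against 0.38, 0.52 and 0.53 FPKM in KO CLPs (log2 fold change -1.05, standard error 0.120, limma adjusted p = 0.000803). This call was lost with quantile normalization, at -0.99. On the other side of *Lpl*, *Ints10*, a subunit of the Integrator complex 51.1 kb away, was 10.99 ± 0.406 FPKM in WT against 16.4 ± 1.55 FPKM in KO CLPs (SD, n = 3 each), a log2 fold change of 0.53 that was past the p threshold (limma adjusted p = 0.0137) but not that of size. Genes around the *Lpl* locus in CLPs thus differed in both directions. The genes closest to *Camk2b* (*Ykt6*, 1.85 kb away) and *Chga* (*Itpk1*, 3.56 kb) were not called in any population, nor was *Bub1*, 6.94 kb from *Acoxl*. In MPPs *Rin3*, 164.1 kb from *Chga*, was 67.28, 64.34 and 60.02 FPKM in WT against 36.54, 35.10 and 46.44 FPKM in KO (log2 fold change -0.69, limma adjusted p = 0.0380), past the p threshold but not that of size.

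**Figure D3:**
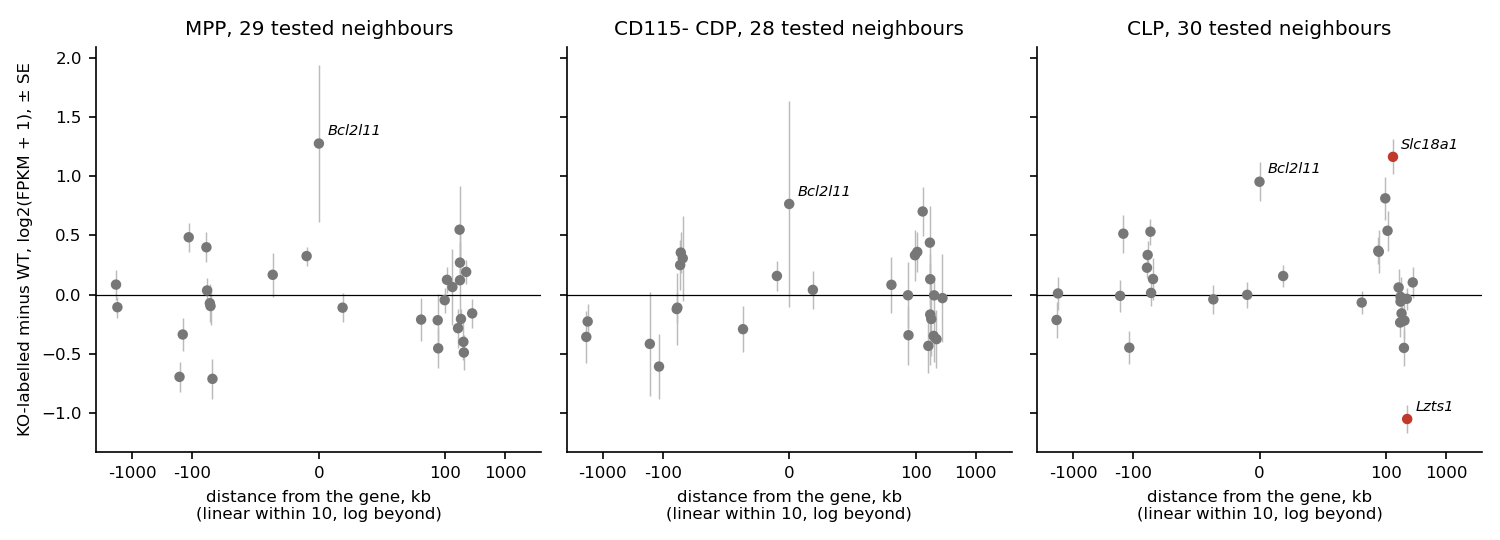
Difference of mean log2(FPKM + 1), KO-labelled minus WT, with its standard error, of the tested neighbors of the 7 genes against their distance from the gene (kb, negative toward lower coordinates; linear within 10 kb, logarithmic beyond), one panel per population. Red points were called: *Slc18a1*, higher, and *Lzts1*, lower, both in CLPs and both beside *Lpl*; *Bcl2l11* is labelled without a call.

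*Bcl2l11*, which encodes the apoptosis inducer BIM, lies at chr2:128126038-128162547 on the same strand as *Acoxl* and shares 215 bases with its annotated end, so that reads over these bases could be assigned to either gene. It was expressed far above *Acoxl*, at 19.69, 16.47 and 12.50 FPKM in WT against 36.07, 29.09 and 30.67 FPKM in KO CLPs (log2 fold change 0.95, standard error 0.164, limma adjusted p = 0.00629), without overlap but below the size threshold. In MPPs it was 14.03, 22.24 and 9.06 FPKM in WT against 47.82, 76.80 and 12.09 FPKM in KO (log2 fold change 1.27, limma adjusted p = 0.272). The values in CD115- CDPs were 59.49, 93.09 and 8.22 FPKM in WT against 86.97, 79.82 and 35.18 FPKM in KO (log2 fold change 0.76, limma adjusted p = 0.825), and its direction turned to -0.25 without the library WT 3. In CD115- CDPs *Acoxl* was highest in KO 3, where *Bcl2l11* was lowest among the KO-labelled libraries. The part of reads over the shared bases in the values of *Acoxl* was not tested, as gene-level values do not resolve them. The values of *Bcl2l11* ran beside those of *Il1r2*, on another chromosome, a pair singled out after the values were seen: the correlation of log2(FPKM + 1) was 0.91 over the 18 libraries, and 0.98, 0.92 and 0.95 over the 6 libraries of MPPs, CD115- CDPs and CLPs, as a description. With *Acoxl* the correlation was 0.51 over the 18 libraries, and 0.88 in MPPs, 0.28 in CD115- CDPs and 0.88 in the CLP libraries.

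**Figure D4:**
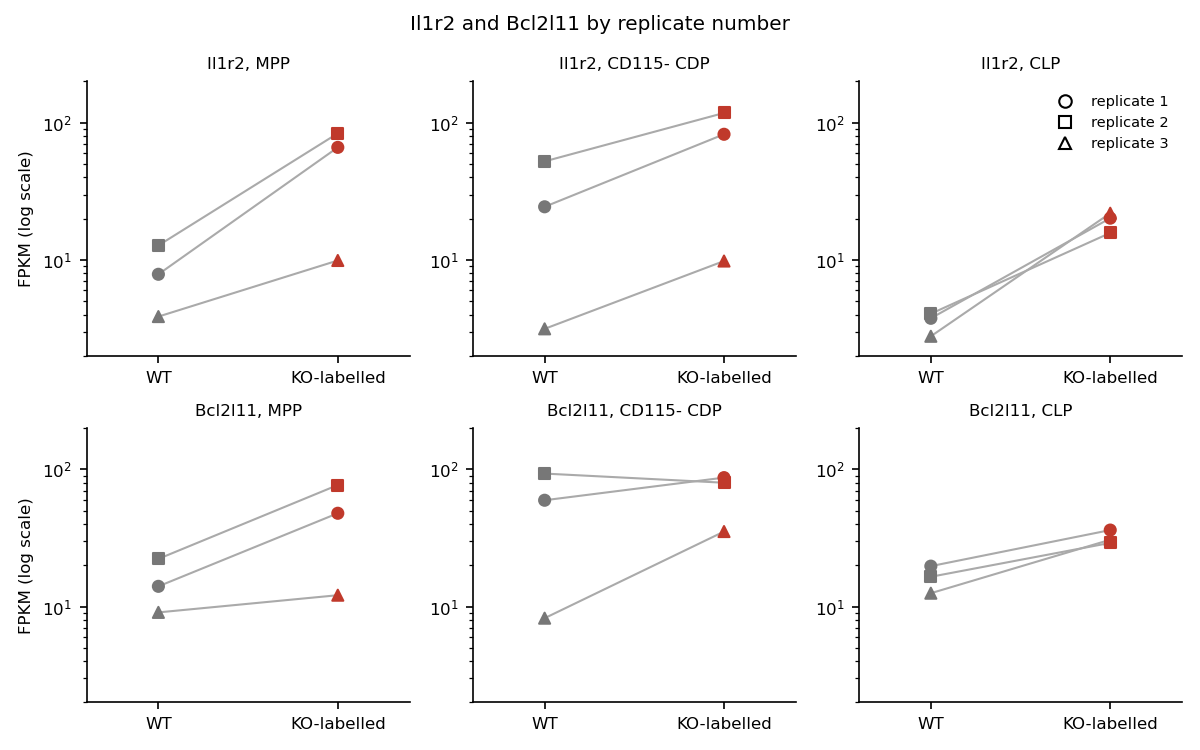
FPKM (log scale) of *Il1r2* (upper row) and *Bcl2l11* (lower row) in WT and KO-labelled libraries of each population, with lines joining libraries that share a replicate number. In MPPs and CD115- CDPs the libraries numbered 3 (triangles) lie lowest in each group for both genes; the KO-labelled library is the higher one on all 9 lines for *Il1r2* and on 8 of 9 for *Bcl2l11*.

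*Il1r2* is the first gene of a cluster of interleukin-1 and interleukin-18 receptor genes on chromosome 1. Interleukin-1 signals through the receptor encoded by *Il1r1*, and the interleukin-18 receptor consists of the chains encoded by *Il18r1* and *Il18rap*. In CLPs *Il18r1*, 340.3 kb from *Il1r2* at chr1:40465552-40500854, was 8.10, 5.35 and 7.66 FPKM in WT against 22.98, 20.18 and 24.09 FPKM in KO (log2 fold change 1.56, standard error 0.155, limma adjusted p = 0.000356). *Il18rap*, 390.1 kb away, was 25.15, 18.46 and 17.96 FPKM in WT against 39.40, 42.47 and 45.07 FPKM in KO CLPs (log2 fold change 1.02, standard error 0.139, limma adjusted p = 0.00188), a call just past the size threshold that was lost when WT 2, WT 3 or KO 3 was left out, at 0.96, 0.94 and 0.98. *Il1r1*, the neighbor 97.2 kb from *Il1r2*, was 7.90 ± 1.42 FPKM in WT against 14.7 ± 3.47 FPKM in KO CLPs (SD, n = 3 each; log2 fold change 0.81, limma adjusted p = 0.0189), without overlap but not called. Between them, *Il1rl2* and *Il1rl1*, the latter encoding the receptor of interleukin-33, were not called and differed by -0.45 and 0.10. In MPPs and CD115- CDPs none of these 5 genes was called, and the log2 differences of *Il18r1* were 0.29 and 0.52, the latter with limma adjusted p = 0.423, or 0.0504 with the block. The 2 genes called higher in CLPs lie beyond the 3 nearest genes on this side, of which 0 were called. They are on the list of interleukin-1 genes followed below, where 2 of 18 tested genes were called higher in CLPs, against 0.673% of all tested genes. Of the 5 genes, *Il1r1*, *Il1rl2* and *Il1rl1* are neighbors set by the rule, while *Il18r1* and *Il18rap* are not. The share called among the 5 therefore does not describe the locus. The difference between populations was not tested.

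Other genes of the pathways in which the 7 genes act were followed on lists of 162 genes. Of those tested, 0 of 102 were called higher by limma in MPPs, 0 of 99 among CD115- CDPs and 4 of 98 in CLPs, where 0.673% of all tested genes were. Called lower were 2 in MPPs, where 1.32% of all tested genes were, and 0 in the other two populations. At an unadjusted p of at most 0.05, 5 were higher and 27 lower in MPPs, 5 and 6 in CD115- CDPs and 18 and 17 in CLPs. The share of all tested genes at this threshold is not given, so that these counts are a description only. Leaving out the MPP library KO 3 gave 3 calls higher (*Irak2*, *Fabp5* and *Furin*, at 2.17, 1.29 and 1.93). The 4 genes called higher in CLPs were *Slc18a1*, *Il18r1*, *Il18rap* and *Slc27a2*. *Slc27a2*, a transporter and activator of very long-chain fatty acids on the list of peroxisomal oxidation with *Acoxl*, was 6.41, 6.51 and 7.86 FPKM in WT against 15.46, 18.33 and 17.82 FPKM in KO (log2 fold change 1.2, standard error 0.122, limma adjusted p = 0.000415).

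On the lipase list, *Apoe*, which encodes a ligand for lipoprotein uptake, fell in MPPs from 34.33, 27.81 and 34.60 FPKM in WT to 6.79, 8.64 and 5.04 FPKM in KO (log2 fold change -2.11, standard error 0.193, limma adjusted p = 0.00449). It was the only call among the 18 or 19 tested genes of this list in any population. *Gpihbp1*, which anchors the lipase to the vessel wall, was listed at 0 FPKM in the 6 MPP libraries. On the interleukin-1 list *Il18*, the ligand of the receptor above, was 8.89, 9.54 and 10.72 FPKM in WT against 4.21, 3.04 and 5.0 FPKM in KO MPPs (log2 fold change -1.09, standard error 0.176, limma adjusted p = 0.0273). The call for *Il18* was kept with TPM but lost with median ratios, with quantile normalization and when any library except KO 3 was left out, where the log2 fold change lay between -0.89 and -1.15.

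None of the 20 tested genes of the calcium/calmodulin kinase list was called in any population, where 4, 2 and 7 of them had an unadjusted p of at most 0.05. Among all tested genes of MPPs, CD115- CDPs and CLPs 0.162%, 0.0409% and 0.673% were called higher and 1.32%, 0.0654% and 2.84% lower. At such shares 0 calls or 1 call on a list of this size is no result about the list. The kinase list holds the other chains of the kinase. *Camk2a* was 16.1 FPKM in WT against 10.1 FPKM in KO-labelled MPPs (limma adjusted p = 0.0455), and 6.29 and 10.2 FPKM in CLPs (limma adjusted p = 0.0323), in opposite directions and below the size threshold. The log2 differences of *Camk2d* and *Camk2g* lay between -0.18 and 0.22 in the 3 populations, against 1.93 to 3.29 for *Camk2b*. None of the 15 tested genes of intracellular calcium release was called without the block, and 4, 3 and 6 had an unadjusted p of at most 0.05. With the block, *Fkbp1b*, which encodes a protein that binds the ryanodine receptor, was called lower in CD115- CDPs, at 1.62, 1.79 and 9.58 FPKM in WT against 0.36, 0.39 and 1.10 FPKM in KO (log2 fold change -1.43, limma adjusted p = 0.0367 with the block and 0.457 without it). Granin and prohormone-processing genes beside *Chga* were mostly not listed or near 0: 7, 6 and 6 of 20 were tested, and *Slc18a1* was the only call. The synaptic vesicle gene *Syp* was at 0.04 to 0.59 FPKM and *Snap25* at 0 to 0.11 FPKM in all libraries. Of 28 tested genes on a list of TRIM33 relatives and silencing factors, 1 was called higher in CLPs, where 0.673% of all tested genes were. This gene, *Dnmt3b*, a DNA methyltransferase, was at 17.35, 18.70 and 19.55 FPKM in WT against 49.85, 37.48 and 34.46 FPKM in KO (log2 fold change 1.07, standard error 0.142, limma adjusted p = 0.00165). Without the library KO 1 its log2 fold change was 0.92, which is not called. No gene of that list was called in MPPs or CD115- CDPs, where 3 and 1 had an unadjusted p of at most 0.05.

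**Figure D5:**
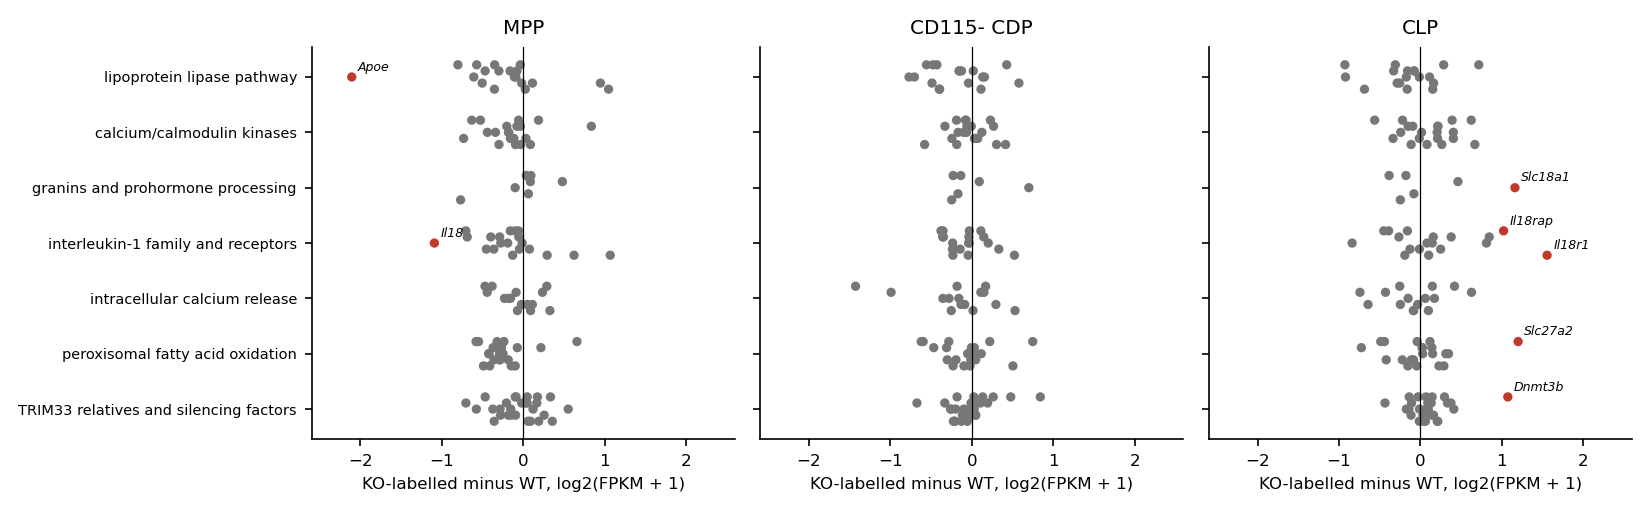
Difference of mean log2(FPKM + 1), KO-labelled minus WT, of each tested gene on the lists built around the 7 genes and on the list of silencing factors, one panel per population. Gray points were not called; red points were, namely *Apoe* and *Il18*, lower in MPPs, and *Slc18a1*, *Il18rap*, *Il18r1*, *Slc27a2* and *Dnmt3b*, higher in CLPs.

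Markers of the tissues in which the 7 genes are best known were few and low. On the lists for neurons, neuroendocrine and islet cells, heart and skeletal muscle, adipocytes, and seminal vesicle and salivary gland, 0 genes were called in any population by limma, with or without the block, and 4 of 5, 2 of 7 and 4 of 7 tested genes had an unadjusted p of at most 0.05 without it. Among all tested genes 0.162%, 0.0409% and 0.673% were called higher and 1.32%, 0.0654% and 2.84% lower without the block. At such shares 0 calls among so few tested genes are no result about these tissues. Most were not listed or too low to test, with 2, 3 and 3 of 12 tested for neurons and 0 of 11 for seminal vesicle. The summed FPKM of the muscle markers was 3.50 to 5.0 in WT and 1.85 to 3.77 in KO-labelled MPPs, and *Tnnt2*, cardiac troponin T, was listed at 0 FPKM in the 6 MPP libraries, in which *Ryr2* differed most. Summed adipocyte markers, mostly *Lipe* (hormone-sensitive lipase), were 13.57 to 19.77 FPKM in WT and 7.21 to 9.12 FPKM in KO-labelled CLPs, in which *Lpl* differed most. For neurons the sum, mostly *Camk2a* and *Nefh*, was 9.15 to 11.72 FPKM in WT and 15.87 to 18.14 FPKM in KO-labelled CLPs, and 21.93 to 23.43 and 15.70 to 18.96 FPKM in MPPs. The part of these markers in the results for *Ryr2*, *Lpl* and *Camk2b* was not tested.

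Some markers of other blood cells were called in MPPs and CLPs, but none in CD115- CDPs without the block. The lists were chosen with earlier results of these data known, so that their counts are a description. Of all 69, 65 and 56 marker genes tested in MPPs, CD115- CDPs and CLPs, 26, 0 and 8 were called lower, and 0, 0 and 2 higher. Among all tested genes 1.32%, 0.0654% and 2.84% were called lower and 0.162%, 0.0409% and 0.673% higher. The marker lists had 50, 8 and 25 lower and 0, 4 and 8 higher at an unadjusted p of at most 0.05, again without the share of all tested genes. With the block the CD115- CDPs had 8 lower and 2 higher, and the CLPs 18 lower, against 1.46% and 0.376% of all tested genes in the former and 3.11% in the latter. In MPPs the calls were 9 of 13 erythroid and megakaryocyte genes, 7 of 17 neutrophil genes, 5 of 11 macrophage and monocyte genes, 4 of 7 basophil and mast cell genes and 1 of 9 B lymphoid genes. The summed erythroid and megakaryocyte markers were 402.4 to 432.1 FPKM in WT and 50.69 to 71.91 FPKM in KO-labelled MPPs. In CLPs the summed macrophage and monocyte markers, from cells known to express *Lpl*, were 207.0 to 251.5 FPKM in WT and 20.23 to 30.74 FPKM in KO, so that they were lower where *Lpl* was higher. The CLP calls lower were 3 of 5 macrophage and monocyte genes, 3 of 7 erythroid and megakaryocyte genes and 2 of 6 T and NK lymphoid genes. The genes called higher were *Rag1* and *Nkg7* (log2 fold changes 1.67 and 1.39), 1 each on the B lymphoid and the T and NK lymphoid lists. Summed neutrophil markers, from cells known to express *Il1r2*, were 3854 to 3998 FPKM in WT and 1683 to 2783 FPKM in KO-labelled MPPs, and ranged from 719.9 to 4871 FPKM in WT and from 858.3 to 4603 FPKM in KO-labelled CD115- CDPs. The part of these shifts in the levels of the 7 genes was not tested.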

How the data were processed

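RNA-seq of 18 libraries of sorted bone marrow progenitors was used, 3 WT and 3 KO-labelled for each of MPPs, CD115- CDPs and CLPs. Single-end 50-base reads were filtered by the authors, who mapped them to transcripts with Bowtie2 v2.2.5 and estimated gene levels with RSEM v1.2.12; HISAT2 v2.0.4 and mm10 are also named. The deposited values are FPKM per gene, rounded to 2 decimals, in a table for each population. No strand-specific counting is stated. The labels call the libraries biological repeats; where nothing says that they came from separate mice, p-values measure only the spread between these libraries.

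Depth was estimated from the steps between low FPKM of 495 to 568 genes per library with a known transcript length, and read numbers are estimates, since RSEM divides reads between transcripts. Genes averaging 0.5 FPKM or more across their 6 libraries were fitted on log2(FPKM + 1) with limma 3.58.1 (trend) in R 4.3.3, within each population and with Benjamini-Hochberg adjustment over 12372, 12229 and 12339 genes, and the fit was tested on simulated data. This scale understates changes of low genes. No test spans the tables. An alternative fit had the replicate number of the labels as a block. The genes named are the 7 genes, *Trim33*, the 3 nearest listed genes on each side, list genes that were called or reached 1 FPKM in a group, and the 3 most similar profiles per gene. The members and lists were chosen with earlier results of these data known. Alternatives were a pseudocount of 0.1, no filter, a filter at 5 FPKM, TPM, median ratios, quantile normalization, no trend, the block, and leaving out each library. Annotation came from RefSeq and GENCODE vM21 on GRCm38. Python 3.11.15 with numpy 2.4.6 and pandas 2.3.3 made the summaries.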

Additional observations from a re-analysis of the deposited data

Results flagged for a closer look

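Among the 42 neighbors, 3 genes moved in opposite directions in 2 populations, with every KO-labelled library on one side of the WT range in the first and on the other side in the second. *Csgalnact1* had a log2 difference of 0.51 in CLPs and -0.34 in MPPs. *Golga5* had 0.33 in CLPs and -0.11 in CD115- CDPs. *Lgmn*, which encodes the lysosomal protease legumain, had 0.48 in MPPs but -0.61 in CD115- CDPs and -0.45 in CLPs. None of these differences was called within a population, and the differences between populations were not tested.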

How the results depend on the processing

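The log2 differences of the 7 genes kept their direction in 250 of 250 comparisons with an alternative, and 51 moved by more than the SD between replicates. The genes were picked for this direction in the same libraries, so that keeping it is no support for the rise. The comparisons with the block are among them and leave each log2 difference unchanged by construction. Of 279 comparisons of counts, 26 moved by more than 1.5 times. In MPPs, pathway genes called lower were 1 with median ratios and 1 with quantile normalization, and marker genes called lower were 11 with the filter at 5 FPKM. With the replicate block, pathway genes called lower in CD115- CDPs were 1, and marker genes called higher 2 and lower 8. Marker genes called lower in CLPs were 18 with it. In MPPs the block moved no count of calls among neighbors, pathway genes or markers by over 1.5 times. In CLPs, neighbors called lower were 0 with the filter at 5 FPKM, which removes *Lzts1*, and 0 with quantile normalization, and pathway genes called lower were 2 with a pseudocount of 0.1 (*Irak2* and *Atp2a1*) and 1 with TPM (*Atp2a1*). The cause was not tested for the others.

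When each library was left out in turn, the counts in MPPs ranged from 0 to 1 for neighbors higher (*Bcl2l11*, at 2.02, without KO 3), 0 to 3 for pathway genes higher, 1 to 3 for pathway genes lower, 0 to 1 for markers higher and 13 to 31 for markers lower, with 13, 14 and 13 without WT 1, WT 2 and WT 3. In CLPs they ranged from 1 to 2 for neighbors higher (*Bcl2l11* without WT 1 or KO 2) and 0 to 1 for pathway genes lower (1 without WT 3, *Lipe*, and 1 without KO 1). *Trim33* in MPPs ranged from -0.45 to 0.12, reversing without KO 3, and *Bcl2l11* in CD115- CDPs from -0.25 to 1.43, reversing without WT 3. In WT, *Sva* is limited by depth, at 0 to about 1 read, and *Ryr2* by rounding, since 0.01 FPKM stands for about 3.44 reads.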
